A study of Mus musculus with 12 samples.

Results

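The 10 genes described here act at the start and the end of dopamine signalling: the 5 dopamine receptor genes Drd1, Drd2, Drd3, Drd4 and Drd5, the vesicular monoamine transporter gene Slc18a2, the synthesis enzymes Th and Ddc, and the monoamine oxidases Maoa and Maob. They were chosen by symbol from the deposited transcript tables of mouse amygdala RNA and are 10 of the 24531 genes there. The rule uses names alone, but the set was chosen with earlier results of these data known. Polyadenylated RNA was sequenced from 2 amygdala regions of male wild-type mice, the basolateral nuclei (BLA) and the central nucleus (CeA), in the inbred strains 129S1/SvImJ (S1) and C57BL/6 (B6). Mice of both strains were naive, fear-conditioned (FC) or carried through fear extinction (Ext), and the study asked which genes relate to the poor fear extinction of S1 mice. The 12 libraries were S1 and B6 in each region and condition, with 1 library per combination. The sources used here give neither the mice's age, nor how many mice a library pools, nor whether both regions came from the same mice.

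Dopamine receptors fall into a D1-like pair (Drd1 and Drd5), which couple to stimulatory G proteins and raise cyclic AMP, and a D2-like group (Drd2, Drd3 and Drd4), which couple to inhibitory G proteins and lower it. Tyrosine hydroxylase (Th) makes L-DOPA from tyrosine, aromatic L-amino acid decarboxylase (Ddc) turns L-DOPA into dopamine and 5-hydroxytryptophan into serotonin, the Slc18a2 protein loads monoamines into vesicles, and the monoamine oxidases degrade them. Dopamine reaches the amygdala mainly in axons whose cell bodies lie in the midbrain, and receptors of both classes in the BLA, the CeA and the intercalated cell clusters take part in fear learning and its extinction.

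Libraries held 42224899 to 61695302 counts and 17147 to 17630 detected genes, and levels are given in CPM, a gene's counts scaled to the same total in every library, or, where genes are set against each other, in the authors' FPKM, which also divides by transcript length. Markers ran with the region labels in the region fit before extinction, described below, where 46.6% of all tested genes passed the threshold. There 8 of 8 markers of BLA excitatory neurons passed as higher in BLA than in CeA, and 8 of 8 markers of CeA neurons passed as lower. The lists were chosen with earlier results of these data known. The naive CeA library of B6 had 421 CPM of BLA excitatory markers, against 177 to 256 CPM in the other CeA libraries. All 10 striatal projection neuron markers were also lower in BLA, with a summed level of 436 to 855 CPM in the 6 BLA libraries and 3025 to 4299 CPM in the 6 CeA libraries. The FC CeA library of S1 stood lowest of the 6 CeA libraries for that sum. In these bulk samples, fewer cells of a type and less RNA per cell cannot be told apart.

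Per length and averaged over both strains, Drd1 was the most abundant of the 10 genes in BLA and Drd2 the most abundant in CeA. The BLA order began with Drd1 at 12.2 ± 1.83 and Maoa at 10.8 ± 0.669 FPKM, whose spreads overlapped, followed by Maob at 8.36 ± 1.94 FPKM (SD, n = 6 libraries). Drd2 at 4.21 ± 2.24 and Ddc at 3.01 ± 0.469 FPKM were the next pair in BLA and were not apart beyond their spread. Drd5 at 0.871 ± 0.0763 FPKM was the third most abundant receptor in BLA and Slc18a2 at 0.0360 ± 0.0249 FPKM the lowest of the 10 genes. Between them in BLA stood Th at 0.615 ± 0.223, Drd3 at 0.149 ± 0.0887 and Drd4 at 0.0719 ± 0.0278 FPKM, with Drd5 and Th about 1 SD apart. In CeA, Drd2 stood at 46.3 ± 8.02 FPKM and Ddc at 31.6 ± 2.82 FPKM (SD, n = 6 libraries). Drd1 at 18.2 ± 3.29 FPKM came next in CeA, and then Maoa at 11.6 ± 0.897 and Maob at 10.8 ± 1.85 FPKM, which overlapped. Th at 2.55 ± 0.870 and Slc18a2 at 2.46 ± 0.332 FPKM lay within each other's spread in CeA. They stood above Drd3 at 0.511 ± 0.276, Drd5 at 0.459 ± 0.106 and Drd4 at 0.0314 ± 0.0506 FPKM, of which Drd3 and Drd5 overlapped.

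**Figure D1:**
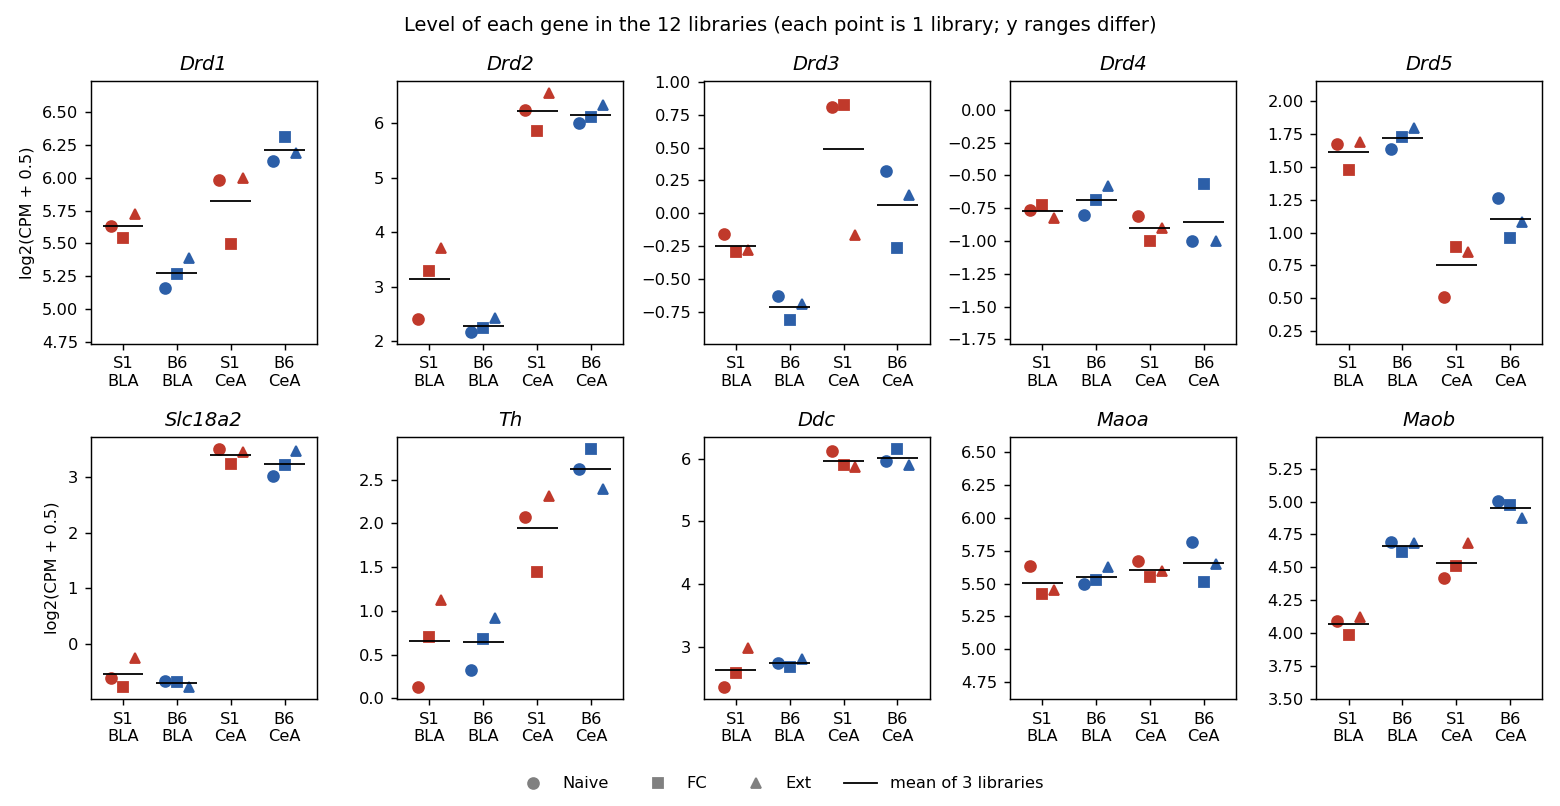
Level of each of the 10 genes as log2(CPM + 0.5), 1 point per library, in S1 and B6 samples of BLA and CeA; circles are naive, squares FC and triangles Ext libraries, and the line is the mean of 3 libraries. Drd2, Drd5, Slc18a2, Th and Ddc separate the regions. Maob and, in opposite directions, Drd1 separate the strains within each region, and the panels have different ranges.

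Only Drd1 and Ddc were deposited with more than 1 transcript, and in both the transcripts differ in where they start. The RefSeq promoter table (GRCm38.p6) held 11 windows for 9 of the 10 genes. Below are the 250 bases before each start of Drd1 and Ddc, and those before Th, the rate-limiting enzyme of dopamine synthesis. The Drd1 start of NM_010076 is the outer one and that of NM_001291801 lies 878 bases inside the gene; the Ddc starts of NM_001190448 and NM_016672 are 7736 bases apart. All 5 windows are on the minus strand, at chr13:54055659-54055908, chr13:54054781-54055030, chr11:11898145-11898394, chr11:11890409-11890658 and chr7:142899996-142900245 in the order printed.
Drd1 outer start, NM_010076: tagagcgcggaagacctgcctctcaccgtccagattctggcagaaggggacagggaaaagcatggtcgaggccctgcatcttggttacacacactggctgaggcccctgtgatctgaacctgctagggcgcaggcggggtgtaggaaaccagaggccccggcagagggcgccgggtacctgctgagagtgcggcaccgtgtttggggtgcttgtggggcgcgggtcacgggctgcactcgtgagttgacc
Drd1 inner start, NM_001291801: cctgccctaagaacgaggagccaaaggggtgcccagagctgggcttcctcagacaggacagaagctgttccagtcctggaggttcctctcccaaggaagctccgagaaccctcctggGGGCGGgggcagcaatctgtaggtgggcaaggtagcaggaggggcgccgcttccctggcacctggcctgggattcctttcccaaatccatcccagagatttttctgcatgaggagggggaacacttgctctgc
Ddc outer start, NM_001190448: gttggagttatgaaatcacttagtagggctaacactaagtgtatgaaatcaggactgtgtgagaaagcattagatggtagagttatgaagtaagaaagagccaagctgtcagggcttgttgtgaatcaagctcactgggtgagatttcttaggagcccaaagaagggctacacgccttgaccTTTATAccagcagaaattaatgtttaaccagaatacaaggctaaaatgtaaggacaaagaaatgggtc
Ddc inner start, NM_016672: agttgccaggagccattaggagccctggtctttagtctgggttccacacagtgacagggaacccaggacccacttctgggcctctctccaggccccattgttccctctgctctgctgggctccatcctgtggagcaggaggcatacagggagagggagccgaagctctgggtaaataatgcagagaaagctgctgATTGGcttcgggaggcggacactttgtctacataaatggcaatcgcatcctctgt
Th: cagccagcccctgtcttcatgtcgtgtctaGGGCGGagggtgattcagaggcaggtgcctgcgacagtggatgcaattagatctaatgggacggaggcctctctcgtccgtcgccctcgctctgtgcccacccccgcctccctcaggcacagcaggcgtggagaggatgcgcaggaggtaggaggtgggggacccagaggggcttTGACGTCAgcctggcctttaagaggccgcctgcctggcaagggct
Capitals mark matches on either strand to 4 motifs: the cyclic AMP response element TGACGTCA, the GC box GGGCGG, the TATA box TATAAA and the CCAAT box. The cyclic AMP response element reads the same on both strands, and no matches overlapped in these 5 windows. The Th window held the cyclic AMP response element, beginning 45 bases before the RefSeq start, and a GC box; TGACGTCA occurred in 1.55% of the 32851 windows of this length in the table. The Th start of RefSeq lies 29 bases outside the start in the deposited tables. The inner Drd1 window held 1 GC box and the outer Drd1 window none of the 4 motifs; a GC box occurred in 32.74% of windows. The outer Ddc window held a TATA box on the opposite strand, a motif in 12.37% of windows, and the inner Ddc window an opposite-strand CCAAT box, a motif in 33.85%. The Drd2 and Drd4 starts in RefSeq also differ from the deposited ones, and Maob, which had no window, is named only.

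The comparison of regions asked where in the amygdala these genes are transcribed. Before extinction, with the 8 naive and FC libraries in 1 additive model of strain, region and condition, 7 of the 9 tested genes passed an adjusted p of 0.05. Of these, 1 was higher in BLA (Drd5) and 6 were lower (Drd2, Drd3, Slc18a2, Th, Ddc and Maob), while 46.6% of all 16274 tested genes passed in the same comparison. The median difference of the 9 tested genes was -1.93 on the log2 scale, and that of all tested genes -0.01. Adjusted p-values are from edgeR's quasi-likelihood F test with Benjamini-Hochberg adjustment over all tested genes; with 1 library per group they measure the spread of libraries around the additive model and not the spread between mice.

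Slc18a2, the vesicular transporter, was nearly absent from BLA. It had 0.153, 0.0835 and 0.340 CPM in the naive, FC and Ext BLA libraries of S1, and 0.127, 0.122 and 0.0846 CPM in those of B6. The CeA libraries had 10.9, 8.91 and 10.5 CPM in S1 and 7.60, 8.84 and 10.5 CPM in B6, in the order naive, FC and Ext. Every CeA library lay far above every BLA library, where 4 to 21 counts were found per library. The means were 0.152 ± 0.0961 CPM in BLA and 9.54 ± 1.29 CPM in CeA (SD, n = 6 each), so that CeA stood 62.8-fold higher. The log2 difference, BLA minus CeA, was -6.07 ± 0.20 SE before extinction (adjusted p = 1.03e-06) and -5.54 ± 0.42 SE after it (adjusted p = 0.00202). Exons of Slc18a2 overlap those of the antisense gene Gm29261 in GENCODE vM21, and the sources used here do not say whether reads were counted by strand.

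Ddc, the decarboxylase shared by dopamine and serotonin synthesis, had the second highest CeA level of the 10 genes per length. It had 4.62, 5.47 and 7.38 CPM in the naive, FC and Ext BLA libraries of S1, and 6.17, 5.93 and 6.52 CPM in those of B6. In CeA it had 68.9, 58.8 and 57.9 CPM in S1 and 62.0, 71.0 and 59.3 CPM in B6. The 2 regions were far apart and the 2 strains overlapped within each of them. Its CeA mean was 10.48-fold the BLA mean, with a log2 difference of -3.45 ± 0.10 SE before extinction (adjusted p = 8.05e-07) and -2.98 ± 0.09 SE after it (adjusted p = 0.000614).

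Th, the enzyme ahead of Ddc in the dopamine pathway, was less abundant than Ddc in both regions per length. It had 0.592, 1.13 and 1.69 CPM in the naive, FC and Ext BLA libraries of S1, and 0.747, 1.10 and 1.39 CPM in those of B6. In CeA it had 3.72, 2.22 and 4.46 CPM in S1 and 5.64, 6.74 and 4.76 CPM in B6. The BLA and CeA libraries did not overlap, and neither did the strains within CeA, where S1 was the lower. The region difference was -2.20 ± 0.30 SE on the log2 scale before extinction (adjusted p = 0.000572) and -1.49 ± 0.21 SE after it (adjusted p = 0.00906).

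Markers of monoamine neuron cell bodies had low counts in both regions. The summed level of the 7 markers was 0.501 to 1.24 CPM in the 6 BLA libraries and 1.07 to 1.96 CPM in the 6 CeA libraries. Fev, a transcription factor of serotonin neurons, had 0 counts in 12 of 12 libraries, and Pitx3, a transcription factor of midbrain dopamine neurons, had 0 in 8 of 12. Slc6a2 and Slc6a4 had at most 13 and 16 counts, and Tph2 had 8 to 40 counts in BLA and 4 to 21 in CeA. Before extinction 3 of the 7 were tested; Slc6a3 was lower and Dbh higher in BLA, and Tph2 did not pass. Slc6a3, the dopamine transporter, had 0 to 16 counts in BLA libraries and 41 to 62 in CeA libraries, with a log2 difference of -2.84 ± 0.57 SE (adjusted p = 0.00401). Dbh, dopamine beta-hydroxylase, had 5 and 4 counts in the naive and FC BLA libraries of S1, 16 and 22 in those of B6, and 0 to 3 in the CeA libraries (adjusted p = 0.00868). The part of monoamine cell body RNA in the differences of Slc18a2, Ddc and Th was not tested. The 4 mast cell markers, another monoamine-storing cell type, summed to 0 to 0.051 CPM in BLA and 0 to 0.133 CPM in CeA, and Cma1 and Mcpt4 had 0 counts in all 12 libraries.

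Drd2, the main D2-like receptor, followed the same regional pattern at a higher level. It had 4.84, 9.33 and 12.7 CPM in the naive, FC and Ext BLA libraries of S1, and 4.02, 4.21 and 4.86 CPM in those of B6. In CeA it had 75.1, 57.8 and 93.6 CPM in S1 and 64.1, 68.6 and 79.8 CPM in B6. No BLA library came near a CeA library, and the FC and Ext BLA libraries of S1 were above the other 4 BLA libraries. The CeA mean was 10.99-fold the BLA mean, and the log2 difference was -3.52 ± 0.23 SE before extinction (adjusted p = 1.03e-05) and -3.34 ± 0.30 SE after it (adjusted p = 0.00279). The striatal marker list fell in BLA in 10 of 10 members, its sum was highest in the same BLA library and lowest in the same CeA library as Drd2, and its part in the Drd2 difference was not tested.

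Drd3, a D2-like receptor of low abundance, was also lower in BLA before extinction. Its BLA counts were 18, 15 and 20 in the naive, FC and Ext libraries of S1, and 8, 4 and 7 in those of B6. Its CeA counts were 53, 67 and 22 in S1 and 36, 15 and 30 in B6. In CPM, the FC CeA library of B6 and, by a small margin, the Ext CeA library of S1 fell below the highest S1 BLA library, so the regions overlapped. The log2 difference was -1.93 ± 0.35 SE before extinction (adjusted p = 0.00246); after extinction it was -1.11 ± 0.69 SE and did not pass (adjusted p = 0.274).

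Drd5 ran the other way. This D1-like receptor had 2.70, 2.28 and 2.72 CPM in the naive, FC and Ext BLA libraries of S1, and 2.60, 2.81 and 2.98 CPM in those of B6. In CeA it had 0.924, 1.35 and 1.31 CPM in S1 and 1.90, 1.44 and 1.62 CPM in B6. All 6 BLA libraries were above all 6 CeA libraries. The BLA mean was 1.88-fold the CeA mean, with a log2 difference of 1.01 ± 0.20 SE before extinction (adjusted p = 0.00381) and 1.06 ± 0.23 SE after it (adjusted p = 0.0252), where DESeq2 gave an adjusted p of 0.105. Exons of Drd5 overlap those of the antisense gene Gm26560.

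Drd1, the main D1-like receptor, differed less between the regions than Drd2. It had 49.2, 46.1 and 52.5 CPM in the naive, FC and Ext BLA libraries of S1, and 35.3, 38.1 and 41.4 CPM in those of B6. In CeA it had 62.7, 44.6 and 63.5 CPM in S1 and 69.4, 79.0 and 72.4 CPM in B6. The regions overlapped only through the FC CeA library of S1, which was below all 3 BLA libraries of that strain. The log2 difference, BLA minus CeA, was -0.48 ± 0.18 SE before extinction and did not pass (adjusted p = 0.0562). It passed without the FC CeA library of S1 (-0.67, adjusted p = 0.00352), without the naive BLA library of S1 (adjusted p = 0.042), with all 12 libraries in the fit (adjusted p = 0.0107), with the length trend removed (adjusted p = 0.0459) and by DESeq2 (adjusted p = 0.00963). After extinction it was -0.44 ± 0.14 SE and did not pass (adjusted p = 0.0664), while it passed by DESeq2 (adjusted p = 0.0198) and with the length trend removed (adjusted p = 0.0425).

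Drd4, the remaining D2-like receptor, had too few counts to enter the test. It had 4 to 10 counts in the 6 BLA libraries and 0 to 8 in the 6 CeA libraries, and 3 CeA libraries had none, so the regions overlapped. Over 6 libraries each this came to 34 counts in BLA and 13 in CeA, with BLA higher in 5 of 6 matched pairs. The highest count, 10 in the Ext BLA library of B6, has an exact 95% Poisson interval of 4.8 to 18.4. For a count of 0 the same interval reaches 3.69 counts, or 0.0701 to 0.0770 CPM in the 3 libraries at 0. The separate floor of 3 counts stood at 0.0570 to 0.0626 CPM in them. Whether Drd4 differs between regions or strains was not tested.

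The 2 monoamine oxidase genes, which are neighbours on the X chromosome, behaved differently. Maoa, which prefers serotonin and noradrenaline as substrates, had 49.1, 42.5 and 43.2 CPM in the naive, FC and Ext BLA libraries of S1, and 44.7, 45.7 and 49.0 CPM in those of B6. Its CeA levels were 50.4, 46.4 and 48.0 CPM in S1 and 55.8, 45.1 and 49.8 CPM in B6. Its regions and strains overlapped throughout, with a region difference of -0.01 ± 0.07 SE before extinction (adjusted p = 0.928) whose sign changed when single libraries were left out. Maob, the oxidase found largely in glia and serotonin neurons, was slightly lower in BLA than in CeA: -0.28 ± 0.07 SE before extinction (adjusted p = 0.00993) and -0.29 ± 0.12 SE after it, which did not pass (adjusted p = 0.131).

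After extinction, 5 of the 9 tested genes passed in the region comparison of the 4 Ext libraries, against 36.3% of all 15996 tested genes. They were Drd5, which was higher in BLA, and Drd2, Slc18a2, Th and Ddc, which were lower. This fit had 1 residual degree of freedom. Its libraries are not those of the fit before extinction, and the 2 fits gave the same direction for each of those 5 genes.

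**Figure D2:**
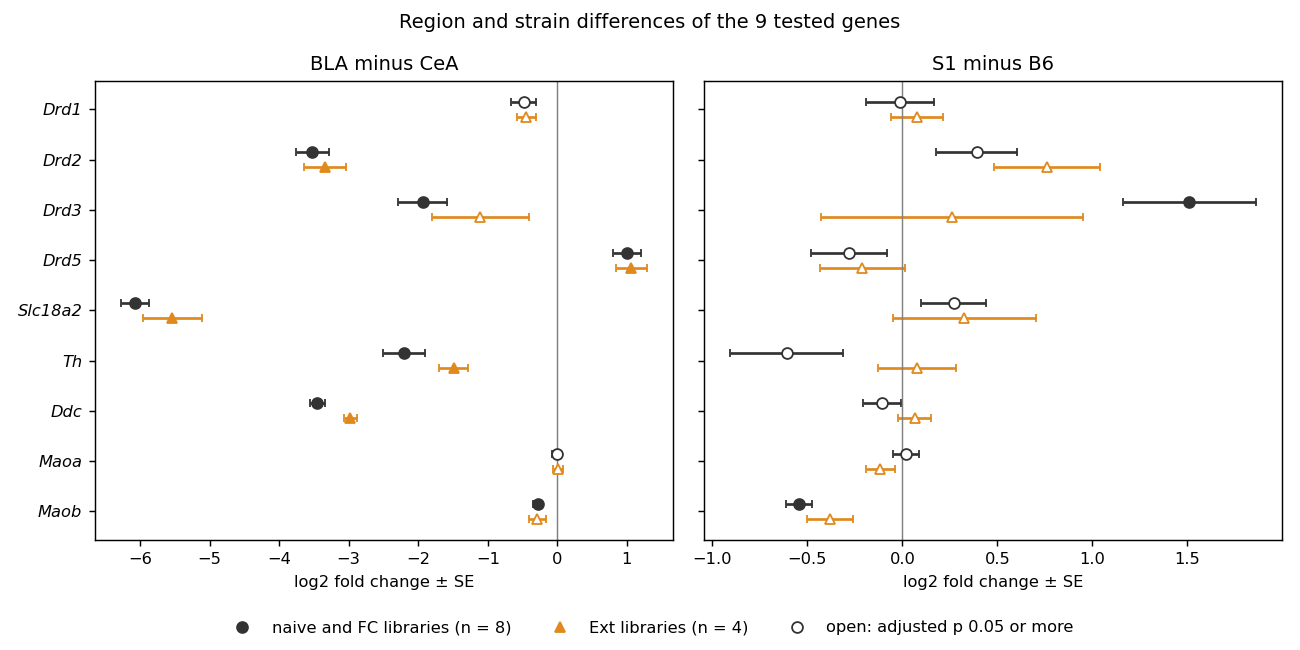
Log2 differences between BLA and CeA (left) and between S1 and B6 (right) for the 9 tested genes, with SE, before extinction (circles, 8 libraries) and after it (triangles, 4 libraries); filled symbols passed an adjusted p of 0.05. The region differences run from -6.07 for Slc18a2 to 1.01 for Drd5 before extinction, and in the strain panel Drd3 and Maob are the filled symbols.

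The comparison of strains asked whether S1 and B6 mice differ in these genes. Before extinction 2 of the 9 tested genes passed, 1 higher in S1 (Drd3) and 1 lower (Maob), while 22.8% of all 16274 tested genes passed. The median difference was -0.01 on the log2 scale for the 9 genes and 0.00 for all tested genes.

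Maob was lower in S1 in 6 of 6 matched pairs of libraries. It had 16.5, 15.3 and 16.9 CPM in the naive, FC and Ext BLA libraries of S1, against 25.3, 24.1 and 25.2 CPM in those of B6. In CeA it had 20.9, 22.2 and 25.2 CPM in S1, against 31.7, 30.9 and 28.8 CPM in B6. The strains did not overlap in either region, and the smallest gap was between the Ext CeA libraries. S1 averaged 16.3 ± 0.832 CPM and B6 24.9 ± 0.699 CPM in BLA, and S1 averaged 22.8 ± 2.19 CPM and B6 30.5 ± 1.49 CPM in CeA (SD, n = 3 each). The log2 difference, S1 minus B6, was -0.54 ± 0.07 SE before extinction (adjusted p = 0.00179), and it passed without any 1 of the 8 libraries (adjusted p from 0.00197 to 0.0114). After extinction it was -0.38 ± 0.12 SE and missed the threshold (adjusted p = 0.263). Fitted in 1 region over its 6 libraries, an analysis chosen after seeing the data, it was -0.61 ± 0.07 SE in BLA (adjusted p = 0.00168, where 14% of genes passed) and -0.38 ± 0.10 SE in CeA (adjusted p = 0.0625, where 7.59% passed). Over the naive and FC libraries of 1 region, also chosen after seeing the data, it passed in both regions. There 8.28% of all genes passed in BLA and 26.2% in CeA.

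Of the 9 astrocyte markers, 5 were also lower in S1 before extinction and none higher, where 22.8% of all genes passed: Gfap fell by 1.68 on the log2 scale (adjusted p = 0.000659), and Aldoc, Aldh1l1, Slc1a3 and Aqp4 fell by 0.25 to 0.37. Their summed level was 3404 to 3855 CPM in S1 and 3820 to 4507 CPM in B6 in BLA, and 4094 to 4837 CPM in S1 and 4466 to 4737 CPM in B6 in CeA. The other 4 markers did not pass: Sox9 was at -0.29, Gja1 at -0.02, Fgfr3 at 0.03 and Slc1a2 at 0.12. The part of astrocyte RNA in the Maob differences between strains and regions was not tested.

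Drd3 was higher in S1 in 4 of 4 matched pairs before extinction, with the counts given above. In BLA the strains did not overlap, at 0.344 ± 0.0441 CPM in S1 and 0.111 ± 0.0384 CPM in B6 (SD, n = 3 each). In CeA they overlapped, since the Ext library of S1 (22 counts) fell below the naive and Ext libraries of B6. The log2 difference before extinction was 1.51 ± 0.35 SE (adjusted p = 0.0204). It did not pass without the FC BLA library of B6 (1.39, adjusted p = 0.0641), the FC CeA library of B6 (1.35, adjusted p = 0.0828), the FC CeA library of S1 (1.35, adjusted p = 0.0773) or the naive BLA library of S1 (1.51, adjusted p = 0.0505). After extinction the difference was 0.26 ± 0.69 SE (adjusted p = 0.903). Exact 95% Poisson intervals for the BLA counts ran from 8.40 to 30.9 across the S1 libraries and from 1.09 to 15.8 across the B6 libraries, for counting error only.

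Drd1 differed between the strains in opposite directions in the 2 regions. In BLA, S1 was higher in 3 of 3 matched pairs, at 49.3 ± 3.18 CPM against 38.3 ± 3.02 CPM in B6 (SD, n = 3 each). In CeA, S1 was lower in 3 of 3 pairs, at 56.9 ± 10.7 CPM against 73.6 ± 4.88 CPM in B6, and the strains overlapped in neither region. The strain difference over both regions was -0.01 ± 0.18 SE before extinction (adjusted p = 0.969). The test of the difference between regions, the strain by region interaction, gave 0.81 ± 0.22 SE with an unadjusted p of 0.00714 and an adjusted p of 0.477; over all 12 libraries, a fit chosen after seeing the data, it gave 0.71 ± 0.16 SE (adjusted p = 0.237). Within BLA over 6 libraries, a fit also chosen after seeing the data, Drd1 was higher in S1 by 0.37 ± 0.07 SE on the log2 scale (adjusted p = 0.0116). Within CeA the difference was -0.35 ± 0.14 SE (adjusted p = 0.155), so the separate regional directions did not both pass. The summed level of the 5 intercalated cell markers ran the same way: it was 191, 185 and 234 CPM in the naive, FC and Ext BLA libraries of S1, against 182, 159 and 165 CPM in those of B6. In CeA the sum was 455, 447 and 435 CPM in S1, against 560, 556 and 532 CPM in B6, and the strains overlapped in neither region. None of the 5 markers passed in the strain by region interaction, where only 0.0307% of all genes passed. The interaction was positive for 5 of 5, with a median of 0.35 on the log2 scale. The sums of the CeA neuron markers and of the 27 genes acting below dopamine receptors, described below, also ran this way. That held in 3 of 3 pairs of each region. Their single members were mixed: the interaction was positive for 4 and negative for 4 of the 8 CeA neuron markers. It was positive for 16 and negative for 11 of the 27 genes. The median interactions were 0.0106 and 0.0172 on the log2 scale, against 0.0055 for all tested genes. In BLA the CeA neuron sum was 269 to 417 CPM in S1, against 261 to 333 CPM in B6. In CeA that sum was 1526 to 1799 CPM in S1, against 1839 to 1996 CPM in B6. The parts of intercalated cell and CeA neuron RNA in the Drd1 differences were not tested.

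**Figure D3:**
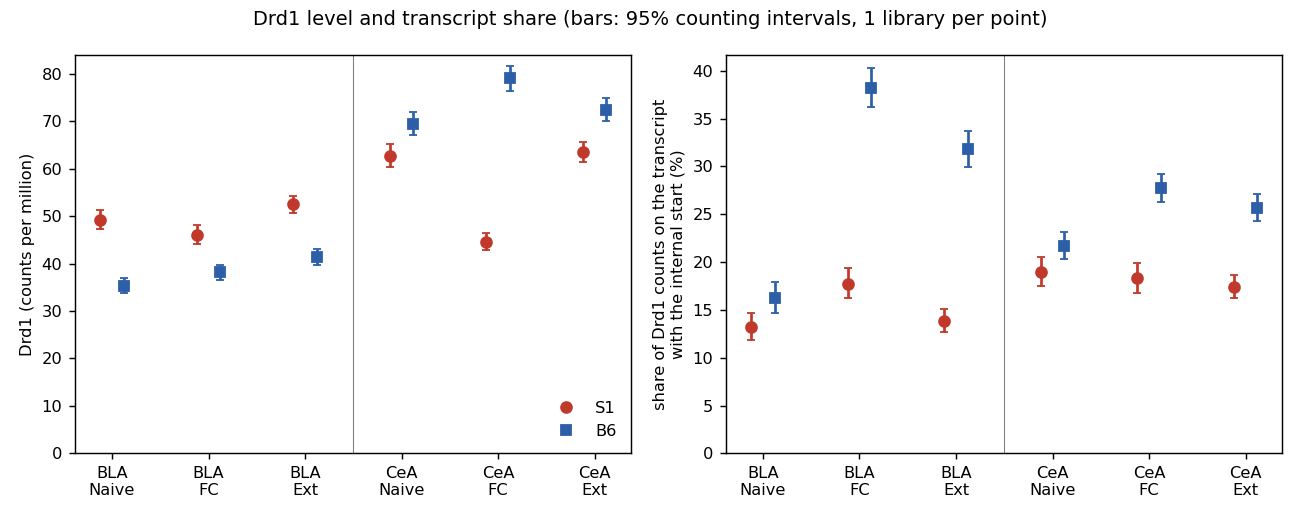
Left, Drd1 in CPM for each region and condition, S1 as circles and B6 as squares, with exact 95% Poisson intervals. Right, the share of Drd1 counts assigned to the transcript with the inner start, with 95% Wilson intervals; S1 libraries lie above B6 in BLA and below B6 in CeA on the left, and below their B6 partner in 6 of 6 pairs on the right.

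The share of Drd1 counts on NM_001291801, the transcript from the inner start printed above, was lower in S1 in 6 of 6 matched pairs. In BLA it was 13.2%, 17.8% and 13.8% in the naive, FC and Ext libraries of S1, and 16.2%, 38.2% and 31.8% in those of B6. In CeA it was 19.0%, 18.3% and 17.4% in S1, and 21.7%, 27.8% and 25.7% in B6. The naive pairs were closest and the FC BLA pair was furthest apart, by 20.5 percentage points; the ranges of S1 (13.2% to 19.0%) and B6 (16.2% to 38.2%) overlapped. The transcript's own counts did not differ past the threshold: the strain difference was -0.57 ± 0.31 SE before extinction (adjusted p = 0.36 over 24539 transcripts). Over all 12 libraries, added after seeing the data, it was -0.65 ± 0.21 SE (adjusted p = 0.103). The 2 transcripts share most of their length, so the split is an estimate of the authors' software.

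For Ddc the inner start carried the counts. NM_016672 held 100% of Ddc counts in 11 of 12 libraries, and NM_001190448, from the outer start, had counts in only 1 library, the FC CeA library of B6, with 82 of 3205 (2.56%).

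Drd2 was higher in S1 in 5 of 6 matched pairs, but its strain difference of 0.39 ± 0.21 SE before extinction did not pass (adjusted p = 0.219), nor did that of 0.76 ± 0.28 SE after it (adjusted p = 0.321). As a ratio the excess was larger in BLA, where S1 averaged 8.94 ± 3.92 CPM and B6 4.36 ± 0.437 CPM (SD, n = 3 each), or 2.05-fold. In CeA, S1 averaged 75.5 ± 17.9 CPM and B6 70.8 ± 8.11 CPM (SD, n = 3 each), or 1.07-fold. There S1 was higher in the naive and Ext pairs and lower in the FC pair. Fitted within BLA over 6 libraries, chosen after seeing the data, the difference was 0.96 ± 0.19 SE (adjusted p = 0.0149), and within the 4 naive and FC BLA libraries it was 0.73 ± 0.21 SE (adjusted p = 0.0788, where 8.28% of genes passed). The summed level of the striatal markers was also higher in S1 in 3 of 3 BLA pairs: it was 476, 617 and 855 CPM in the naive, FC and Ext BLA libraries of S1, against 439, 436 and 488 CPM in those of B6. In the BLA fit over 6 libraries 4 of the 10 striatal markers were higher in S1 and none lower, where 14% of all genes passed. Adora2a, the adenosine receptor of Drd2-expressing striatal neurons, differed most of those 4 (1.01 ± 0.20 SE, adjusted p = 0.0131). Ppp1r1b (0.28, adjusted p = 0.123), Rgs9 (0.31, adjusted p = 0.142), Pde10a (0.25, adjusted p = 0.117) and Tac1 (-0.07, adjusted p = 0.645) were among the 6 that did not pass. The part of striatal RNA in the Drd2 and Drd1 differences in BLA was not tested.

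Th in CeA was lower in S1 in 3 of 3 matched pairs, at 3.47 ± 1.14 CPM against 5.71 ± 0.992 CPM in B6 (SD, n = 3 each). Over both regions its strain difference of -0.61 ± 0.30 SE did not pass (adjusted p = 0.173). Within the naive and FC CeA libraries, a fit chosen after seeing the data, it was -1.04 ± 0.28 SE (adjusted p = 0.0417, where 26.2% of genes passed), and with the Ext libraries added it was -0.71 ± 0.27 SE (adjusted p = 0.145). The FC CeA library of S1, which was lowest in striatal markers, also had the lowest CeA level of Th. In CeA the striatal sum was 3764, 3025 and 4233 CPM in the naive, FC and Ext libraries of S1, against 4299, 4240 and 4193 CPM in those of B6. The part of striatal RNA in the Th difference was not tested. Drd5 in CeA was likewise lower in S1, at 1.19 ± 0.234 CPM against 1.65 ± 0.232 CPM in B6, without overlap, and the fit within CeA gave -0.43 ± 0.28 SE (adjusted p = 0.344). The naive CeA library of B6, which had the highest Drd5 level of the 6, also had the highest sum of BLA excitatory markers, 421 CPM against 177 to 256 CPM in the other 5 CeA libraries, and the part of BLA tissue in this difference was not tested. The strain differences of Slc18a2 (0.27 ± 0.17 SE), Ddc (-0.11 ± 0.10 SE) and Maoa (0.02 ± 0.07 SE) before extinction did not pass, with adjusted p from 0.286 to 0.867.

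After extinction none of the 9 tested genes passed in the strain comparison, where 1.64% of all 15996 tested genes passed. DESeq2 also called none of the 9. Drd2 (unadjusted p = 0.0452) and Maob (unadjusted p = 0.028) were the members with an unadjusted p under 0.05 by edgeR. The strain gap after extinction was also set against the gap before it over all 12 libraries; the change passed for none of the 9 genes and for 0% of 16523 genes. It was -1.23 ± 0.73 SE for Drd3 (adjusted p = 0.79), 0.70 ± 0.46 SE for Th (adjusted p = 0.799) and 0.17 ± 0.14 SE for Maob (adjusted p = 0.815).

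Conditioning, the comparison of FC with naive libraries over both strains and regions, changed none of the 9 tested genes past the threshold, and 0% of all 16274 genes by edgeR. Over all genes 571 had an unadjusted p under 0.05, and DESeq2 called 21 genes, none of them among the 9. The smallest p was that of Maoa, at -0.15 ± 0.07 SE on the log2 scale (unadjusted p = 0.0502, adjusted p = 0.999). The other 8 log2 differences lay between -0.55 for Drd3 and 0.21 for Th. The strain by conditioning interaction passed for none of the 9 and for 0% of genes, the region by conditioning interaction for none of the 9 and for 0.0184% of genes, and the strain by region interaction for none of the 9 and for 0.0307% of genes.

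Of the 27 genes acting below dopamine receptors, 24 passed in the region comparison before extinction, 10 higher and 14 lower in BLA, where 46.6% of all genes passed. The list's median was -0.18 and that of all tested genes -0.01 on the log2 scale. Among the largest falls were Ppp1r1b (the phosphatase inhibitor DARPP-32, -2.83 ± 0.17 SE), Rgs9 (a striatal regulator of G protein signalling, -2.38 ± 0.13 SE), and the G protein subunits Gng7 (-2.01 ± 0.09 SE) and Gnal (-1.59 ± 0.07 SE), with adjusted p from 2.13e-06 to 6.39e-06. The 5 largest rises were the inwardly rectifying potassium channels Kcnj6 (2.52 ± 0.30 SE) and Kcnj3 (1.21 ± 0.07 SE), the receptor kinase Adrbk2 (0.54 ± 0.12 SE), the inhibitory G protein Gnaz (0.46 ± 0.07 SE) and Rgs7bp, which anchors Rgs proteins (0.44 ± 0.13 SE), with adjusted p from 5.81e-06 to 0.0217. Ppp1r1b, Rgs9 and Pde10a are also on the striatal marker list.

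The same list gave 19 of 27 genes past the threshold in the Ext libraries, 6 higher and 13 lower in BLA, where 36.3% of all genes passed. Kcnj6 (2.08 ± 0.14 SE), Kcnj3 (1.27 ± 0.07 SE), Gnai1 (0.39 ± 0.06 SE), Adrbk2 (0.28 ± 0.07 SE) and Gnao1 (0.26 ± 0.07 SE) rose most. Ppp1r1b (-2.48 ± 0.17 SE), Rgs9 (-2.23 ± 0.23 SE), Gng7 (-2.22 ± 0.16 SE), Arpp21 (-1.997 ± 0.304 SE) and the phosphodiesterase Pde10a (-1.74 ± 0.09 SE) fell most. Between strains before extinction 2 of the 27 passed, against 22.8% of all genes, both higher in S1: Prkaca, the catalytic subunit of protein kinase A (0.25 ± 0.05 SE, adjusted p = 0.00775), and the kinase Gsk3b (0.25 ± 0.05 SE, adjusted p = 0.0144). After extinction none passed between strains; Rgs4 (-0.26 ± 0.06 SE, adjusted p = 0.165) and Kcnj3 (-0.25 ± 0.07 SE, adjusted p = 0.21) had the smallest p.

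Of the 22 other genes of monoamine synthesis, transport and breakdown, 19 were tested before extinction, and 8 were higher and 3 lower in BLA, where 46.6% of all genes passed. The 5 largest rises were Dbh and Tph1 (hydroxylases of noradrenaline and serotonin synthesis), Pcbd1 and Spr (enzymes of the tetrahydrobiopterin cofactor) and the aldehyde dehydrogenase Aldh1a1. Pcbd1 rose by 1.36 ± 0.15 SE (adjusted p = 0.000182), Aldh1a1 by 0.85 ± 0.13 SE and Spr by 0.50 ± 0.06 SE, while Dbh and Tph1 were sparse, with 4 to 22 and 40 to 65 counts in the naive and FC BLA libraries and 0 to 3 and 8 to 26 in the CeA ones. The 3 that fell were Slc6a3, given above, the low-affinity monoamine transporter Slc22a3 (-0.56 ± 0.17 SE, adjusted p = 0.0268) and the aldehyde dehydrogenase Aldh2 (-0.24 ± 0.05 SE, adjusted p = 0.00559). In the Ext libraries, where 36.3% of all genes passed, 6 of 20 were higher, led by Pcbd1 (1.45 ± 0.16 SE), Aldh1a1 (0.87 ± 0.08 SE), Spr (0.69 ± 0.07 SE), Qdpr (0.60 ± 0.07 SE) and Pts (0.57 ± 0.11 SE). There 3 were lower, among them Slc6a3 (-3.27 ± 0.51 SE) and the serotonin transporter Slc6a4, which had 0 counts in both Ext BLA libraries and 10 and 16 in the Ext CeA libraries of S1 and B6.

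Between strains, 4 of those 19 genes passed before extinction, 1 higher and 3 lower in S1, a share near the 22.8% of all genes. Pts, which makes a precursor of tetrahydrobiopterin, was lower by 0.79 (log2 difference -0.79 ± 0.06 SE, adjusted p = 0.000174). Aldh1a1 (-0.998 ± 0.128 SE, adjusted p = 0.00193) and Pcbd1 (-0.50 ± 0.15 SE, adjusted p = 0.0492) were lower as well, and the sulfotransferase Sult1a1 was higher (0.51 ± 0.15 SE, adjusted p = 0.047). In the Ext libraries 1 of 20 passed, where 1.64% of all genes did: Aldh1a1 (-0.69 ± 0.08 SE, adjusted p = 0.0464). Neither list had a gene past the threshold for conditioning, the interactions or the change of the strain gap. The smallest p for conditioning were those of Sult1a1 (0.81 ± 0.15 SE, adjusted p = 0.893) and Qdpr (-0.20 ± 0.09 SE) in this list, and of Gnai1 (-0.12 ± 0.05 SE) and Arpp21 (-0.69 ± 0.33 SE) in the signalling list, the last 3 with an adjusted p of 0.999. For the strain by region interaction they included Qdpr (0.41 ± 0.10 SE, adjusted p = 0.434) and Rgs9 (0.56 ± 0.15 SE, adjusted p = 0.481). For the strain by conditioning interaction they included Pcbd1, Kcnj6 and Rgs7bp, for the region by conditioning interaction they were Pnmt, Aldh1a1, Adrbk1 and Ppp1r1b, and for the change of the strain gap Pts, Pcbd1, Gsk3b and Kcnj3, with adjusted p from 0.745 to 1.0.

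Likeness of pattern was measured as the root mean square distance between log2(CPM + 0.5) profiles over the 12 libraries, each centred on its mean, among genes of at least 1 CPM. It is a description of libraries that share dissection and depth. Nearest to Drd2 were Adora2a (distance 0.13), the ecto-nucleotidase Nt5e (0.17), the enkephalin precursor Penk (0.20), Cd4 (0.25) and Clic6 (0.27), where the spread of Drd2 itself was 1.79. Nearest to Slc18a2 were the tachykinin precursor Tac2 (0.15), the phosphodiesterase Pde1c (0.16), Stk26 (0.20), Arhgap36 (0.22) and Dlk1 (0.23), with a spread of 1.98 for Slc18a2. Tac2 and Dlk1 are on the CeA neuron list, and Adora2a and Penk on the striatal list. Ddc lay nearest to Scube3 (0.21), Upk1b (0.22), the acetylcholine-synthesising enzyme Chat (0.24), the homeobox gene Dlx6 (0.24) and Ebf1 (0.24).

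**Figure D4:**
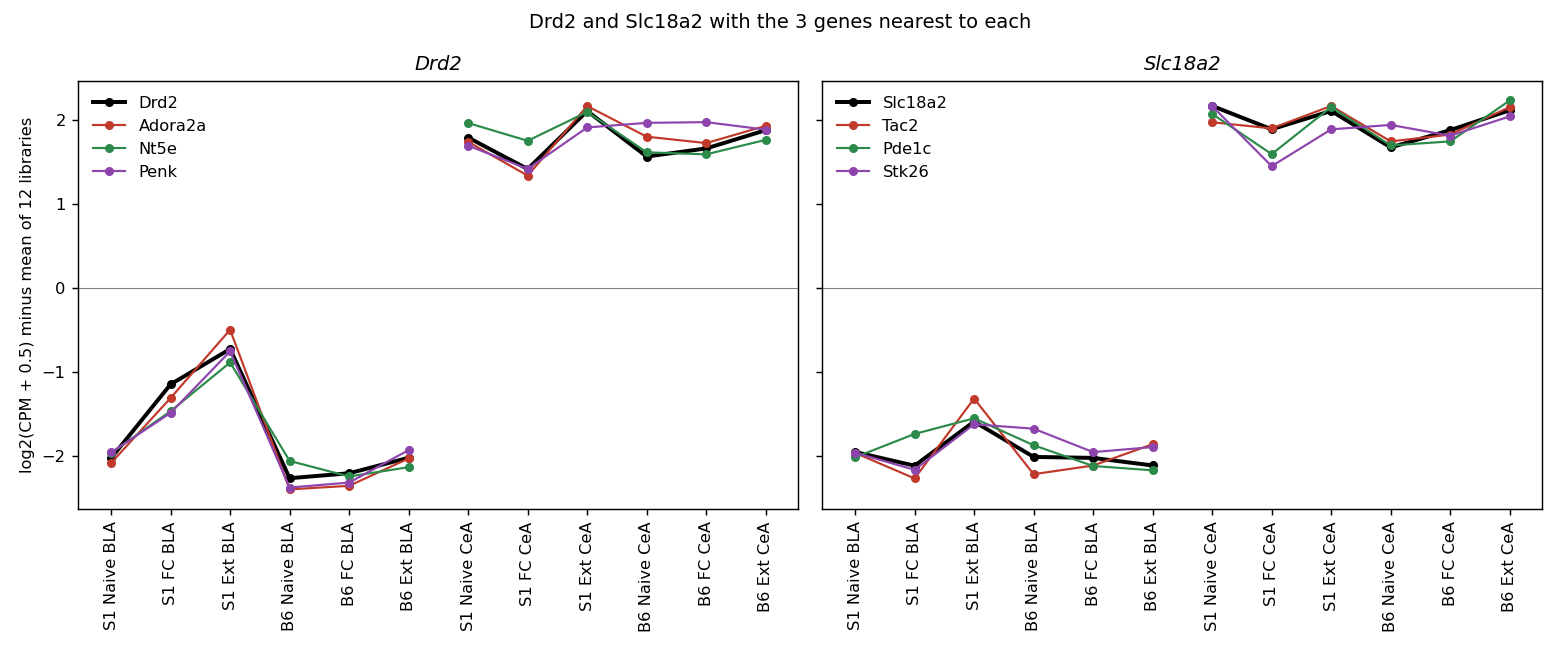
Profiles of Drd2 (left) and Slc18a2 (right) with the 3 genes nearest to each, as log2(CPM + 0.5) minus the mean of the 12 libraries, BLA libraries to the left and CeA libraries to the right. Drd2, Adora2a, Nt5e and Penk all stand higher in the Ext BLA library of S1 than in the other BLA libraries, and Slc18a2 and its neighbours separate the regions.

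Th was nearest to the GABA receptor subunit Gabrd (0.18), the retinoic acid receptor Rarb (0.23), Smpdl3b (0.25), the somatostatin gene Sst (0.25) and Rem2 (0.27). Drd5, the member higher in BLA, was nearest to the kinase Camk1 (0.10), Bin1 (0.10), Tm6sf1 (0.10), Acss2 (0.11) and Larp1b (0.11), with a spread of 0.41. Maob was nearest to Sf3b3, Pygb, Hexdc, Nnt and Tbce, at distances of 0.10 to 0.11 and with a spread of 0.33. None of these 5 is on the astrocyte list, but that list holds only 9 genes, so their absence does not bear on the cell source of Maob.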

How the data were processed

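The authors deposited whole-number read counts and FPKM values per gene and per transcript in 1 pair of tables for the 8 naive and FC libraries and another for the 4 Ext libraries, and each transcript's length, per the file headers. The submitters' processing notes name StringTie; the deposited tables are named for the mm10 build, and the sources used here give no aligner, version or strand setting. RNA was prepared with a stranded mRNA kit, per the labels' protocols. Transcript counts were summed per gene (36779 transcripts, 24531 genes); the sums equalled the deposited gene counts for all 10 members and differed in 73 to 95 genes per library. The 1 count column whose name did not say which library it held was not used.

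The gene sums went into edgeR 4.0.16, run in R 4.3.3 (TMM scaling, filterByExpr, quasi-likelihood F test, Benjamini-Hochberg adjustment, threshold 0.05). Strain, region and conditioning effects came from an additive model of 8 libraries with 4 residual degrees of freedom, each interaction added 1 term, and the 4 Ext libraries were fitted alone, as they were deposited separately. Levels over all 12 libraries cross 2 tables. Standard errors come from the log2 difference and the F statistic. The fit was tested on simulated counts. No pair of libraries was identical. The floor of a library was 3 counts; intervals and floors cover counting error only. All 10 members were named; from each pathway list up to 5 rises and 5 falls past the threshold were taken per comparison, and if none passed up to 2 with the smallest p (some genes this rule names are not reported here); likeness took the 5 nearest genes of each member with at least 1 CPM that was called. The members and lists were chosen with earlier results of these data known. DESeq2 1.42.0, its size factors, no filter on low counts, removal of a transcript length trend, all 12 libraries and leaving out each library were tried as alternatives; fits within 1 region, and the strain by region interaction and the transcripts over all 12 libraries, were added after seeing the data. Sequences are RefSeq's, and overlapping genes were read from GENCODE vM21.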

Additional observations from a re-analysis of the deposited data

Results flagged for a closer look

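The strain difference of Drd1 ran in opposite directions in the 2 regions: S1 libraries were above their B6 partners in 3 of 3 pairs in BLA and below them in 3 of 3 pairs in CeA. The test of the difference itself, the strain by region interaction before extinction, was 0.81 on the log2 scale and did not pass after adjustment (adjusted p = 0.477). Across its alternatives the value ran from 0.55 to 1.09 and the adjusted p from 0.0713 to 0.951. The summed level of the 5 intercalated cell markers also stood higher in S1 in BLA (185 to 234 CPM, against 159 to 182 CPM in B6) and lower in CeA (435 to 455 CPM, against 532 to 560 CPM in B6), and its part in the Drd1 result was not tested. As a sum, the pattern was not particular to that list. The sums of the CeA neuron markers and of the 27 genes acting below dopamine receptors also ran this way. That held in 3 of 3 pairs of each region, though single members were mixed. The interaction was positive for 4 of 8 CeA neuron markers and 16 of 27 genes, and negative for the others. The part of these 2 lists was not tested either.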

How the results depend on the processing

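The region calls before extinction for Drd2, Drd3, Drd5, Slc18a2, Th, Ddc and Maob, and the strain call for Maob, kept their direction and passed under every alternative fitted to both regions. The number of the 9 genes called between strains before extinction was 1 to 2 when single libraries were left out, since Drd3 (1.35 to 1.78) was lost without any of 4 libraries. Drd3 (0.73 to 1.73) also did not pass in any fit within 1 region. Near-zero values changed sign. The strain difference of Drd1 ran from -0.17 to 0.19 when single libraries were left out; it was 0.01 with all 12 libraries and, within BLA, 0.38 before extinction and 0.37 over all conditions. That of Maoa ran from -0.03 to 0.06 without single libraries; it was -0.04 with the length trend removed, -0.03 with all 12 libraries, -0.05 within BLA over all conditions, and -0.00 and -0.02 within CeA before extinction and over all conditions. The region difference of Maoa ran from -0.05 to 0.04 without single libraries. Th was 0.03 between strains within BLA over all conditions, and the conditioning difference of the Ddc transcript NM_016672 ran from -0.06 to 0.12 without single libraries. The cause was not tested. After extinction, Drd5 lost its region call by DESeq2 (adjusted p = 0.105). Strain calls over all genes after extinction numbered 262 by edgeR, 161 without a filter, 435 with the length trend removed and 575 by DESeq2. Leaving out a library of the Ext fit alone was not run, since it leaves no residual degrees of freedom. Removing the length trend gave 2420 strain calls over all genes before extinction against 3712, and leaving out single libraries gave 1489 to 5227. No paired analysis was possible because every library carries replicate number 1, so groups share fewer than 2 numbers; matched pairs are libraries alike in all other labels, which the model holds as terms. Depth limits Drd4 throughout, and Drd3, Slc18a2 and Th in BLA, where counts per library were low.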
